A study of Mus musculus with 12 samples.

Results

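The acyl-CoA thioesterases Acot1, Acot2, Acot3, Acot4, Acot7, Acot8, Acot9, Acot11 and Acot13 were followed across the 12 arrays of a study of cold exposure in mice. The members were taken by name: every probe set of the deposited table whose annotation lists 1 of these 9 genes was kept, whatever its signal. This gave 14 of the 45101 probe sets on the array, 12 that name 1 gene and 2 that list 2 genes. Of these 14 probe sets, 11 were bright enough to test, among 26510 probe sets tested in all. They cover 7 of the 9 genes by a probe set of their own.

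RNA of white fat was hybridised to Affymetrix expression arrays in 4 groups of 3 arrays each, from mice that were all male, of strain C57/BL6 and 6 to 8 weeks old. Cold mice were moved to 4 °C for 1 week or for 5 weeks after 1 to 3 weeks at 18 °C. The controls of each time were labelled 30 degrees in the titles and room temperature in the source names, so their temperature is not settled, and whether they also passed through 18 °C is not stated. All mice had first been kept at 22 °C and no transgene, mutation or drug is named. The labels state neither the fat depot nor that the 3 arrays of a group come from separate animals, so the spread behind each p-value may be technical. Signals are on the log2 scale, and differences are cold minus control with the standard error (SE) of the limma fit and n = 3 arrays per group. A probe set counted as called at an adjusted p (limma, Benjamini-Hochberg over all 26510 probe sets) under 0.05.

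Acyl-CoA thioesterases split the activated form of a fatty acid, its coenzyme A ester, into the free fatty acid and coenzyme A. Acyl-CoA synthetases catalyse the opposite step, so the balance of both sets the supply of acyl-CoA for oxidation, storage and synthesis. The family is spread over the cytosol, mitochondria and peroxisomes. In mice its best known member in fat is Acot11, also called Them1 or brown fat inducible thioesterase, which was named for its rise in brown fat in the cold.

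Of the members, 4 sit side by side: in the RefSeq gene order of mouse chromosome 12 (GRCm38.p6), Acot2, Acot1, Acot4, Acot3, Acot5 and Acot6 follow each other with no other protein-coding gene between them. Acot7 and Acot11 lie on chromosome 4, Acot8 on chromosome 2, Acot9 on chromosome X and Acot13 on chromosome 13. RefSeq promoter sequence was at hand for 8 of the 9 genes, as 10 windows of the 250 bases before a gene start. They were searched on both strands for AGGTCA, the half-site bound by many nuclear receptors, for DR1, a direct repeat of that half-site with 1 base between the copies, and for TCAAGGTCA, the extended half-site of the estrogen-related receptors. The variant half-site GGGTCA was added after the sequences had been read. AGGTCA overlaps both longer motifs. Of all 32851 windows of this length, 14.0% held AGGTCA, 0.0335% DR1, 0.387% TCAAGGTCA and 11.6% GGGTCA.

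Of the 10 member windows 2 held a match, those of Acot4 and Acot11. Only the Acot4 match was to a motif set before the sequences were read. The Acot11 match was to GGGTCA alone, added after reading, so its share of all windows cannot be used to judge that match. Acot11, the member with the largest cold effect, has 2 annotated starts, and its window at chr4:106805008-106805257 (minus strand, GRCm38.p6) held GGGTCA from 26 to 21 bases before the start. The window of its other start at chr4:106799832-106800081 (minus strand) held none of the motifs. The window of Acot4, a dim member, at chr12:84038129-84038378 (plus strand) held AGGTCA on its opposite strand, from 13 to 8 bases before the start. These 3 windows are the 2 with a match and the other Acot11 start, so they were chosen by match. Acot3, another dim member of the chromosome 12 cluster, held no match. Capitals mark the match, and a match is a description of the letters and no evidence of binding.
Acot11, first start: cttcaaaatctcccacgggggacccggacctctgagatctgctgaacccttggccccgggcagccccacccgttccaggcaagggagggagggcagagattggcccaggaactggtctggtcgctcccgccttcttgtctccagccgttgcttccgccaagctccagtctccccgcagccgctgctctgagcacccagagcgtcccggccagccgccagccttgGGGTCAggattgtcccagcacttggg
Acot11, other start: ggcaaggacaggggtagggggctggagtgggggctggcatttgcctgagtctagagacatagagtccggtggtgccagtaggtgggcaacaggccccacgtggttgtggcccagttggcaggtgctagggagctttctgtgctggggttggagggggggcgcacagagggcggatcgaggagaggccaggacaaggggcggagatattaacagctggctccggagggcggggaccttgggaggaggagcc
Acot4: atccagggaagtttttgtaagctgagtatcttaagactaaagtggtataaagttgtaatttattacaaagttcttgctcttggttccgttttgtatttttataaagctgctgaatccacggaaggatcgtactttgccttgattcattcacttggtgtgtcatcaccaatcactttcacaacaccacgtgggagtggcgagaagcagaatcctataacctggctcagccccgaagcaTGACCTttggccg

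Defining adipocyte genes were bright on every array. The mean signal of the 6 tested defining adipocyte genes, of 8 listed, lay between 12.79 and 13.28 on all 12 arrays. Markers of brown and beige adipocytes were higher in the cold: of 12 genes, all tested, 11 rose at each time. At 1 week their mean was 11.14 to 11.47 in cold and 6.92 to 7.66 in control mice. At 5 weeks it was 10.72 to 11.17 in cold and 7.24 to 7.48 in control mice. Macrophage markers went the other way, 11 of 14 lower at 1 week and 12 of 14 lower at 5 weeks, and so did lymphocyte markers, 8 of 8 tested at each time. Of all genes tested 17.1% were called higher at 1 week and 13.9% at 5 weeks. Of all probe sets tested 27.2% were called lower at 1 week and 18.5% at 5 weeks. A higher share of cells that carry a transcript and more of it per cell cannot be told apart in whole tissue, and the part of these marker differences in the values below was not tested. Some arrays stood apart: 3 had a Gapdh control signal higher at the 3′ than the 5′ end by 3.00 to 3.12, and 4 had a mean of skeletal muscle genes of 8.01 to 9.62, against 4.93 to 5.70 on the other 8. The 3′ minus 5′ value of Actb was 1.84 to 2.80 on the cold arrays of 5 weeks and 1.01 to 1.35 on the other 9. The muscle values are given per array with Acot1 and the Gapdh values with Acot8. Some calls of the members ended with 1 of these values as a covariate. Each such call of a cold effect, or of a difference between the effects, is named beside its result. For genes outside the family, fits with these covariates are given only as counts over all probe sets.

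Most tested probe sets of the family were higher in the cold at 1 week, and fewer at 5 weeks. At 1 week 8 of the 11 tested probe sets were higher in cold mice, none was lower and 3 were not called. Of all probe sets tested 44.7% were called at 1 week, 17.5% higher and 27.2% lower. At 5 weeks 5 of the 11 probe sets were higher, none was lower and 6 were not called, beside 31.1% called among all probe sets, 12.6% higher and 18.5% lower. No member probe set was lower at an unadjusted p under 0.05 in limma at either time (0 of 11 at both). By gene, taking the brightest probe set, Acot1, Acot2, Acot8, Acot11 and Acot13 rose at 1 week, 5 of 7 genes. Acot2, Acot9, Acot11 and Acot13 rose at 5 weeks, 4 of 7 genes. Of all 12855 genes tested, 17.1% were called higher at 1 week and 13.9% at 5 weeks. The median difference of the member genes was 1.05 at 1 week and 0.47 at 5 weeks, beside medians of -0.08 and -0.03 over all genes.

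**Figure D1:**
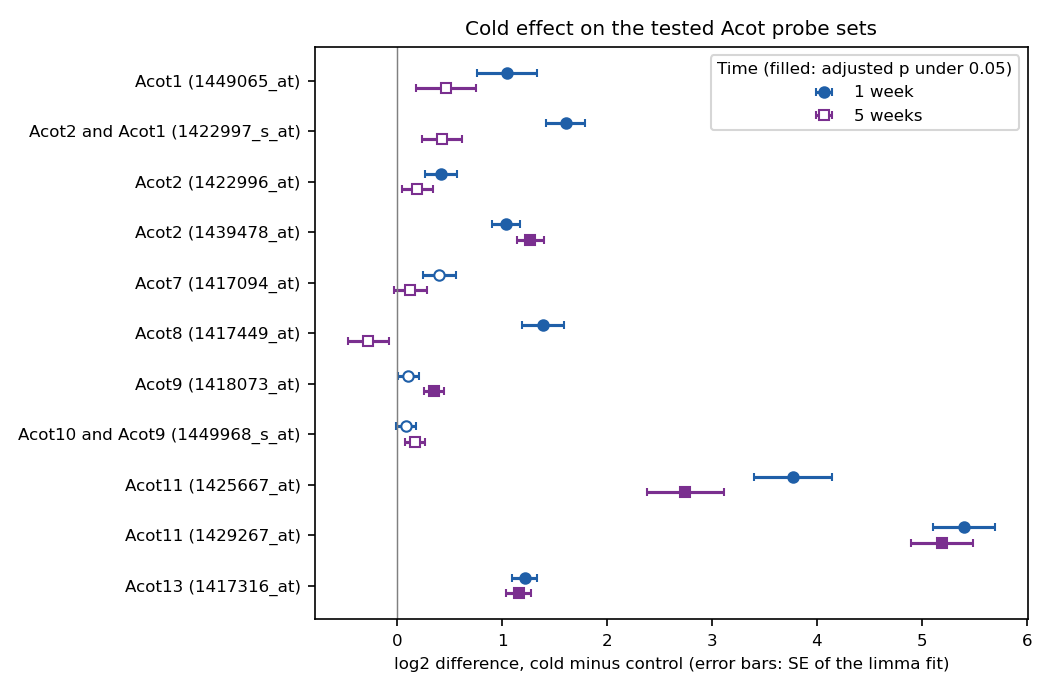
Cold minus control in log2 units (x axis) for each of the 11 tested Acot probe sets (y axis), as circles for 1 week and squares for 5 weeks, with bars for the SE of the limma fit (n = 3 arrays per group) and filled symbols for an adjusted p under 0.05. The 2 Acot11 probe sets lie furthest to the right at both times, and the 2 symbols of Acot8 lie on opposite sides of 0.

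Acot11 joins 2 hot dog fold thioesterase domains to a lipid-binding START domain and acts on long-chain acyl-CoA. Its brighter probe set 1429267_at read 12.68, 12.39 and 12.40 in cold mice at 1 week, against 7.80, 6.28 and 7.17 in their controls. It read 12.54, 12.48 and 12.49 in cold mice at 5 weeks, against 7.54, 7.30 and 7.08 in controls. All cold arrays lay far above all control arrays at both times, and the cold groups of both times were nearly level. The difference was 5.40 (SE 0.295, adjusted p = 1.52e-06), or 42.3-fold, at 1 week and 5.20 (SE 0.295, adjusted p = 1.81e-06), or 36.7-fold, at 5 weeks. The difference between those effects was -0.21 (SE 0.417, adjusted p = 0.763).

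The second Acot11 probe set, 1425667_at, read 8.30, 7.59 and 8.63 in cold mice at 1 week, against 4.48, 4.19 and 4.51 in controls. After 5 weeks the readings were 6.93, 7.17 and 5.83 in cold mice, against 4.49, 3.60 and 3.59 in controls. Again no cold array reached down to a control array, but the cold group was lower at 5 weeks than at 1 week. The cold effect was 3.78 (SE 0.371, adjusted p = 3.82e-05) at 1 week and 2.75 (SE 0.371, adjusted p = 3.59e-04) at 5 weeks. Among cold mice the signal differed by -1.53 between 5 weeks and 1 week (adjusted p = 0.0122), a call lost with the Actb value as a covariate. For 1429267_at the same difference was 0.01 (adjusted p = 0.983). The cold effects of 1425667_at at both times differed by -1.03 (SE 0.525), which did not pass the threshold (adjusted p = 0.191). That difference turned to 0.17 with the Gapdh value and 0.76 with the Actb value as a covariate, was -1.94 with the muscle marker mean, and passed in none of these. The effect at 5 weeks was 4.38 with the Actb covariate (adjusted p = 0.00399). The pair of probe sets correlated at a Pearson r of 0.914 over the 12 arrays, which share all their samples. On 2 of the 3 control arrays at 5 weeks the dimmer probe set lay under log2 4, near the background of these values, so its fold there is less certain.

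**Figure D2:**
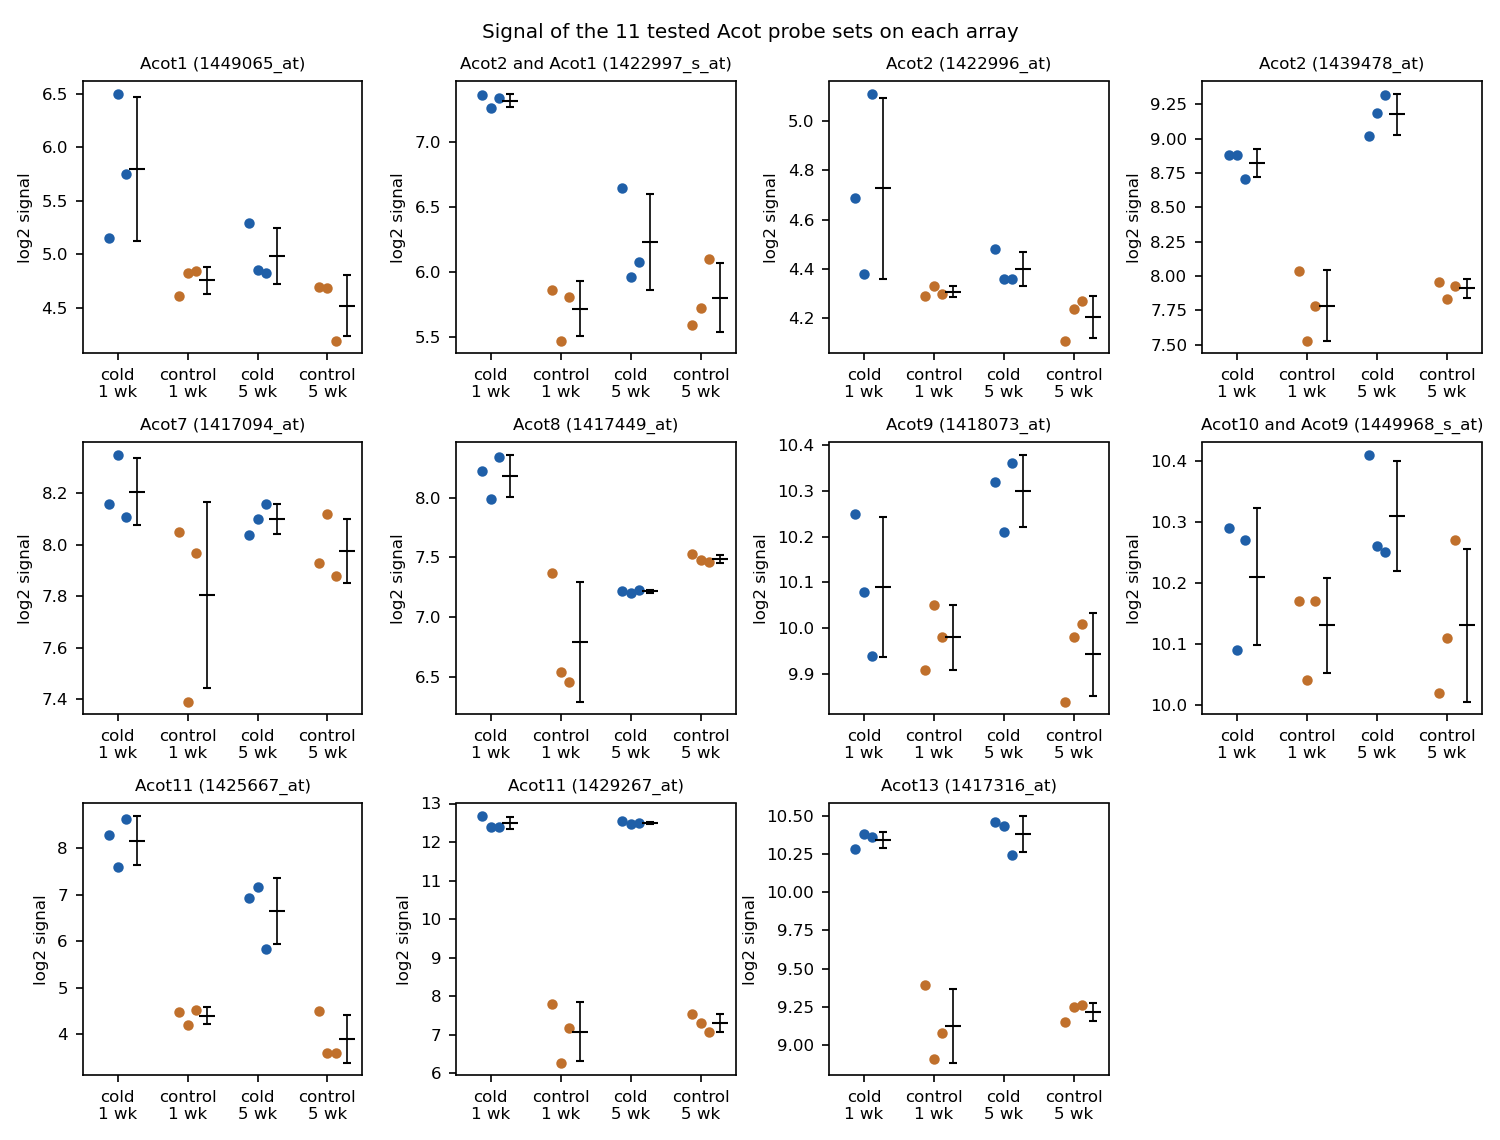
Log2 signal (y axis, scaled separately in each panel) of the 11 tested Acot probe sets on every array, by group (x axis: cold then control at 1 week, cold then control at 5 weeks); points are arrays and bars show the mean and SD of 3. Cold points lie above control points at both times for both Acot11 probe sets, Acot13, Acot1 1449065_at, Acot2 1439478_at and Acot2 1422996_at. Acot8 points are apart at both times, in opposite orders.

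Acot13, also called Them2, is a small hot dog fold thioesterase associated with mitochondria that prefers long-chain acyl-CoA. It read 10.28, 10.38 and 10.36 in cold mice at 1 week, against 9.39, 8.91 and 9.08 in controls. The signals after 5 weeks were 10.46, 10.43 and 10.24 in cold mice, against 9.15, 9.25 and 9.26 in controls. The groups did not overlap at either time, and neither the cold nor the control level differed between weeks beyond their spread (adjusted p = 0.852 for cold and 0.756 for control, limma). The cold effect was 1.21 (SE 0.118, adjusted p = 3.61e-05), or 2.32-fold, at 1 week and 1.16 (SE 0.118, adjusted p = 6.69e-05), or 2.23-fold, at 5 weeks.

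Acot2 is the long-chain thioesterase of the mitochondrial matrix, and Acot1, its neighbour and close copy, works in the cytosol. A probe set that names Acot2 alone, 1439478_at, read 8.88, 8.88 and 8.71 in cold mice at 1 week, against 8.04, 7.53 and 7.78 in controls. After 5 weeks the signals were 9.02, 9.19 and 9.32 in cold mice, against 7.96, 7.83 and 7.93 in controls. Cold arrays were above control arrays at both times. At 5 weeks every cold array lay above every cold array of 1 week, but that difference of 0.35 was not called (limma adjusted p = 0.0639). Its cold effect was 1.04 (SE 0.130, adjusted p = 1.47e-04), or 2.05-fold, at 1 week and 1.27 (SE 0.130, adjusted p = 6.81e-05), or 2.41-fold, at 5 weeks. With the Actb value as a covariate the call at 5 weeks was lost (1.06, adjusted p = 0.0599). The difference between the effects was 0.23 (SE 0.184, adjusted p = 0.410).

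A second probe set of Acot2, 1422996_at, was dim and read 4.69, 4.38 and 5.11 in cold mice at 1 week, against 4.29, 4.33 and 4.30 in controls. Its effect at 1 week was 0.42 (SE 0.150, adjusted p = 0.0408). That call lay near the threshold. It was lost without cold replicate 3 of 1 week (0.23, adjusted p = 0.122) and without 9 of the 11 other arrays, each left out in turn. It was also lost with the Gapdh value (0.37, adjusted p = 0.275) or the Actb value (0.41, adjusted p = 0.0586) as a covariate. At 5 weeks it read 4.48, 4.36 and 4.36 in cold mice, against 4.11, 4.24 and 4.27 in controls, an effect of 0.19 that was not called (adjusted p = 0.358).

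The probe set 1422997_s_at lists both Acot2 and Acot1 and cannot tell them apart. It read 7.36, 7.26 and 7.34 in cold mice at 1 week, against 5.86, 5.47 and 5.81 in controls. The readings after 5 weeks were 6.65, 5.96 and 6.08 in cold mice, against 5.59, 5.72 and 6.10 in controls. The groups were far apart at 1 week and overlapped at 5 weeks, through control replicate 3. The effect was 1.60 (SE 0.188, adjusted p = 1.02e-04), or 3.04-fold, at 1 week and 0.43 (SE 0.188, adjusted p = 0.108) at 5 weeks. The cold effect at 5 weeks minus that at 1 week was -1.18 (SE 0.266, adjusted p = 0.0151). The cold groups differed by -1.09 between 5 weeks and 1 week (adjusted p = 0.00258) and the control groups by 0.09 (adjusted p = 0.868). With the Actb value as a covariate the call between the cold groups was lost. The call of the difference between the effects was lost with the muscle marker mean as a covariate (-1.27, adjusted p = 0.0916), with the Gapdh value (-0.95, adjusted p = 0.456) or the Actb value (-1.06, adjusted p = 0.615) as a covariate, with the controls of 5 weeks averaged (-1.18, adjusted p = 0.106) and without control replicates 2 and 3 of 1 week (-1.03, adjusted p = 0.126). Over the 12 arrays it correlated at an r of 0.761 with the Acot1 probe set, 0.775 with the dim Acot2 probe set and 0.608 with 1439478_at.

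The probe set of Acot1 alone, 1449065_at, read 5.15, 6.50 and 5.75 in cold mice at 1 week, against 4.61, 4.82 and 4.84 in controls. Acot1 after 5 weeks read 5.29, 4.85 and 4.82 in cold mice, against 4.69, 4.68 and 4.19 in controls. Cold arrays lay above control arrays at both times, with the widest spread in the cold group of 1 week. The effect was 1.05 (SE 0.284, adjusted p = 0.0121), or 2.06-fold, at 1 week and 0.47 (SE 0.284, adjusted p = 0.240) at 5 weeks. The effects differed by -0.58 (SE 0.402, adjusted p = 0.337), and by 0.50 (adjusted p = 0.472) with the muscle covariate described next. The highest Acot1 signal stands on the array with the most skeletal muscle signal: the mean of 16 tested muscle genes, of 20 listed, was 5.25, 9.62 and 5.35 in cold mice at 1 week, against 5.39, 5.70 and 5.27 in controls, and 5.12, 5.05 and 4.93 in cold mice at 5 weeks, against 8.01, 8.29 and 8.17 in controls. With that mean as a covariate the Acot1 effect was 0.73 (adjusted p = 0.0189) at 1 week and 1.23 (adjusted p = 0.0192) at 5 weeks, so the effect at 5 weeks was called in that fit. The groups of 5 weeks do not overlap in that mean, so the fit cannot separate muscle signal from cold at that time. Within groups the mean varied mainly through cold replicate 2 of 1 week. The call at 1 week was lost with the Gapdh control value described below as a covariate (1.17, adjusted p = 0.0810) and without control replicates 2 and 3 of 1 week (1.19, adjusted p = 0.0978).

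Acot8 is a peroxisomal thioesterase that accepts acyl-CoA of many chain lengths. It read 8.22, 7.99 and 8.34 in cold mice at 1 week, against 7.37, 6.54 and 6.46 in controls. Acot8 after 5 weeks read 7.22, 7.20 and 7.23 in cold mice, against 7.53, 7.48 and 7.46 in controls. Cold arrays lay above control arrays at 1 week and below them at 5 weeks, so the 2 times had opposite orders. The effect was 1.39 (SE 0.198, adjusted p = 3.06e-04), or 2.62-fold, at 1 week. At 5 weeks it was -0.27 (SE 0.198) and was not called (adjusted p = 0.325), though a fit of the 6 arrays of 5 weeks alone called it (adjusted p = 0.0205). The cold effect at 5 weeks minus that at 1 week was -1.66 (SE 0.280, adjusted p = 0.00614). Among cold mice Acot8 was lower at 5 weeks than at 1 week by a log2 difference of -0.97 (adjusted p = 0.00556). That call was lost with the Actb value as a covariate. Among controls the difference of 5 weeks minus 1 week was 0.70 (adjusted p = 0.0856).

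A measure of RNA quality moved with part of this. The Gapdh control probe sets for the 3′ and 5′ ends of the transcript differed by -0.08, 0.34 and -0.08 in cold mice at 1 week, against 0.90, 3.00 and 3.12 in controls. At 5 weeks they differed by 0.96, 0.19 and 3.01 in cold mice, against 0.03, -0.01 and -0.08 in controls. The lowest Acot8 signals stand on the 2 control arrays of 1 week with values of 3.00 and 3.12, while the cold array of 5 weeks at 3.01 read 7.23, level with its group. Without those 2 control arrays the effect at 1 week was 0.82 (adjusted p = 0.00690) and the difference between the effects was -1.09 (adjusted p = 0.0374). With the Gapdh value as a covariate the effect at 1 week was 1.00 (adjusted p = 0.0183), the effect at 5 weeks -0.03, and the difference between them -1.03 (adjusted p = 0.371). The difference between the effects also lost its call with the 3 control arrays of 5 weeks averaged into 1 (-1.66, adjusted p = 0.0866) and with the Actb value as a covariate (-1.61, adjusted p = 0.485).

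**Figure D3:**
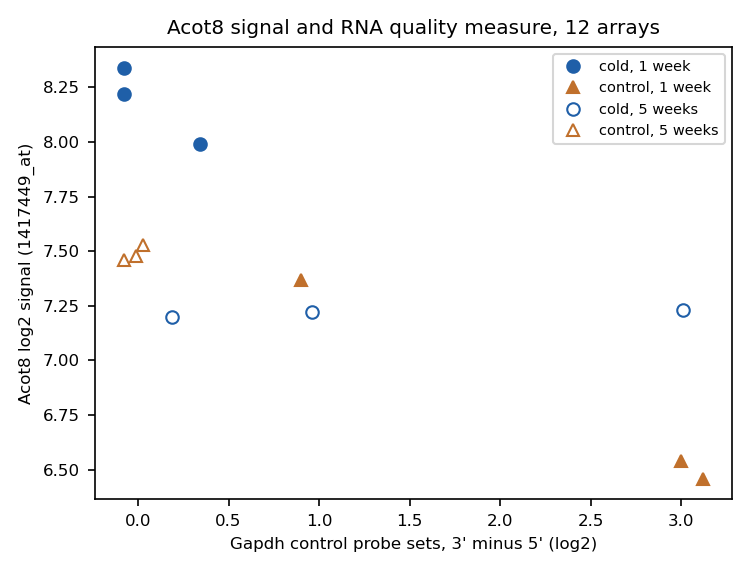
Log2 signal of Acot8 (y axis) against the Gapdh 3′ minus 5′ control value in log2 units (x axis) on each of the 12 arrays, with circles for cold and triangles for control mice, filled at 1 week and open at 5 weeks. The 3 cold arrays of 1 week stand highest, and the 2 control arrays of 1 week at 3.00 and 3.12 stand lowest.

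The other peroxisomal members were near background. Acot4, which in mice hydrolyses succinyl-CoA and other dicarboxylyl-CoA, read 3.95, 3.90 and 4.08 in cold mice at 1 week on 1422076_at, against 3.61, 3.74 and 3.65 in controls, and exceeded log2 4 on 1 array. Its other probe set, 1422077_at, lay between 3.27 and 3.65 on all 12 arrays. Acot3, a peroxisomal thioesterase of medium and long chains, lay between 2.67 and 3.11 on 1422925_s_at. None of these 3 probe sets passed the filter, which asked for more than log2 4 on at least 3 arrays. In a fit without the filter none was called for a cold effect (adjusted p between 0.0513 and 0.665, limma). Within the chromosome 12 cluster, Acot1 and Acot2 were thus the members called at either time. Of the other neighbours in it, Acot5 was not tested and Acot6 is given below.

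Acot9 is a mitochondrial thioesterase, and Acot10 a close copy of it found in mice. The probe set of Acot9 alone, 1418073_at, read 10.25, 10.08 and 9.94 in cold mice at 1 week, against 9.91, 10.05 and 9.98 in controls. Acot9 after 5 weeks read 10.32, 10.21 and 10.36 in cold mice, against 9.84, 9.98 and 10.01 in controls. The groups overlapped at 1 week and were apart at 5 weeks. The effect was 0.11 (SE 0.098, adjusted p = 0.387) at 1 week and 0.35 (SE 0.098, adjusted p = 0.0189), or 1.28-fold, at 5 weeks, and the effects differed by 0.24 (adjusted p = 0.236). The call at 5 weeks was lost without control replicate 1 (0.30, adjusted p = 0.0765), cold replicate 1 (0.34, adjusted p = 0.0555) or cold replicate 3 (0.32, adjusted p = 0.0565). It was also lost with a covariate for the Actb value (0.10, adjusted p = 0.816), the Gapdh value (0.29, adjusted p = 0.0852) or the muscle marker mean (0.35, adjusted p = 0.145), and with the controls of 5 weeks averaged into 1 (0.35, adjusted p = 0.180). The probe set 1449968_s_at, which lists Acot10 and Acot9, gave 0.09 (adjusted p = 0.487) at 1 week and 0.17 (adjusted p = 0.207) at 5 weeks, and lay between 10.02 and 10.41 on all arrays.

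Acot7 is a cytosolic long-chain thioesterase best known from brain. It read 8.16, 8.35 and 8.11 in cold mice at 1 week, against 8.05, 7.39 and 7.97 in controls, and 8.04, 8.10 and 8.16 in cold mice at 5 weeks, against 7.93, 8.12 and 7.88 in controls. At 1 week the groups were just apart, with the lowest cold array at 8.11 and the highest control array at 8.05, and at 5 weeks they overlapped. The effect of 0.40 (SE 0.158) at 1 week just missed the threshold (adjusted p = 0.0576), and that of 0.13 at 5 weeks was not called (adjusted p = 0.580). After quantile normalization the 1-week effect was 0.57 (adjusted p = 0.0129), and with each array centred on its median 0.57 (adjusted p = 0.0135). It was 0.20 (adjusted p = 0.193) without control replicate 2 of 1 week, the low array, and 0.53 (adjusted p = 0.0239) without control replicate 1. Without control replicates 2 and 3 it was 0.16.

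Across the weeks, 2 of the 11 tested probe sets had cold effects that differed between 1 and 5 weeks, Acot8 and the one shared by Acot2 and Acot1, both with the smaller value at 5 weeks. Of all probe sets 19.6% were called, 9.47% in that direction and 10.2% in the other. Among cold mice 3 of 11 were lower at 5 weeks than at 1 week, beside 12.8% of all probe sets. With the Actb value as a covariate none of these 3 calls remained. Among controls none of 11 differed, beside 3.33% of all probe sets. At an unadjusted p under 0.05, 1 of 11 differed among controls (limma), Acot8. No member had a larger cold effect at 5 weeks at the threshold used. At 1 week 9 of 11 probe sets had cold arrays all above control arrays, beside 27.5% of all probe sets, and at 5 weeks 7 of 11, beside 27.1%. The cold arrays of Acot8 lay all below the control arrays at 5 weeks, the 1 probe set of 11 that did so, beside 28.5% of all probe sets.

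The genes around the thioesterases in acyl-CoA metabolism were described in the same fit, 1 probe set per gene. Their counts stand beside 17.1% of all genes called higher at 1 week and 13.9% at 5 weeks. Among all probe sets 27.2% were called lower at 1 week and 18.5% at 5 weeks. Among 14 tested other thioesterases and related hydrolases, of 16 listed, 8 rose and 1 fell at 1 week, and 5 rose and 2 fell at 5 weeks, with medians of 0.41 and 0.30. Hibch, which hydrolyses 3-hydroxyisobutyryl-CoA in valine breakdown, rose by 0.97 at 1 week and 1.18 at 5 weeks. Fasn, fatty acid synthase with its own thioesterase domain, rose by 0.63 at 1 week, and its value at 5 weeks was 0.28 (adjusted p = 0.0586). Ppt1, a lysosomal palmitoyl-protein thioesterase, fell by 0.58 at 1 week and fell by 0.37 at 5 weeks. Lypla2, a cytosolic depalmitoylating enzyme named here after its values were seen, rose by 0.44 at 1 week and fell by 0.71 at 5 weeks. Its effects differed by -1.15 (limma adjusted p = 0.00872). For that difference 5203 probe sets were called in all, but 5 with the Gapdh value and 0 with the Actb value as a covariate. The call of Lypla2 was thus lost with the Actb covariate. Within the Acot family itself, Acot6 gave 0.21 at 1 week (adjusted p = 0.189) and rose by 0.48 at 5 weeks (adjusted p = 0.0139), while Acot12 gave 0.10 at both times and was not called.

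The nudix hydrolases Nudt7, Nudt8 and Nudt19, which cleave coenzyme A and its esters within peroxisomes and mitochondria, all rose at 1 week, by 1.71, 1.16 and 0.90. Nudt7 (1.34) and Nudt19 (0.81) also rose at 5 weeks, whereas Nudt8 gave -0.15 (adjusted p = 0.616). The effects of Nudt8 differed by -1.31 (limma adjusted p = 0.0130), a call lost with the Actb value as a covariate.

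Acyl-CoA synthetases, which catalyse the step opposite to the thioesterases, rose in 10 of 13 tested genes at 1 week and in 7 of 13 at 5 weeks, of 20 listed. The medians were 0.89 and 1.15. Acsl5 rose by 2.04 and 1.73, and Slc27a1, a fatty acid transport protein with synthetase activity, by 1.85 and 1.15. Slc27a2 rose by 3.55 at 1 week; its control arrays at 5 weeks all lay below log2 4, so no size is given there. Acsl3 was the 1 gene of the list that fell, by a log2 difference of -0.30 at 1 week. Of the 13 genes, 3 were called with a larger effect at 5 weeks than at 1 week and 2 with a smaller one. Of all probe sets 10.2% and 9.47% were so called. These calls were lost with the Actb value as a covariate.

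Of the genes of mitochondrial fatty acid oxidation 18 of 19 tested rose at 1 week and 15 of 19 at 5 weeks, with medians of 1.60 and 1.11 and none lower. Slc25a20, the carnitine and acylcarnitine carrier, rose by 2.70 at both times, Etfdh, which passes electrons from fatty acid oxidation to ubiquinone, by 2.28 and 2.36, and Eci1, an enoyl-CoA isomerase, by 1.49 and 1.09. Cpt1a, the liver type of the gatekeeping carnitine palmitoyltransferase, was the 1 gene not called at 1 week (-0.54, adjusted p = 0.0646). In peroxisomal oxidation 13 of 17 tested genes rose at each time, with medians of 0.85 and 0.67. Acaa1b, a peroxisomal thiolase, rose by 2.09 and 1.64, and Abcd3, a peroxisomal membrane transporter, by 1.53 and 1.66. Decr2, the peroxisomal dienoyl-CoA reductase, rose by 2.07 at 1 week and 0.57 at 5 weeks. The effects of Decr2 differed by -1.51 (limma adjusted p = 0.00331), a call lost with the Actb value as a covariate. Abcd2 was the 1 gene lower at 1 week (-0.47).

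Coenzyme A synthesis and acyl-CoA binding held genes that rose and genes that fell. Of 13 genes, all tested, 6 rose and 2 fell at 1 week, and 4 rose and 1 fell at 5 weeks, with medians of 0.24 and 0.05. Pank1, a pantothenate kinase at the first step of coenzyme A synthesis, rose by 2.87 and 3.34, Coasy, which carries out the last steps, by 1.85 and 1.00, and Ppcs, at the second step, by 1.01 and 0.37. The kinases Pank3 (-0.54) and Pank4 (-0.72) fell at 1 week, and Acbd3 (-0.41) at 5 weeks.

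**Figure D4:**
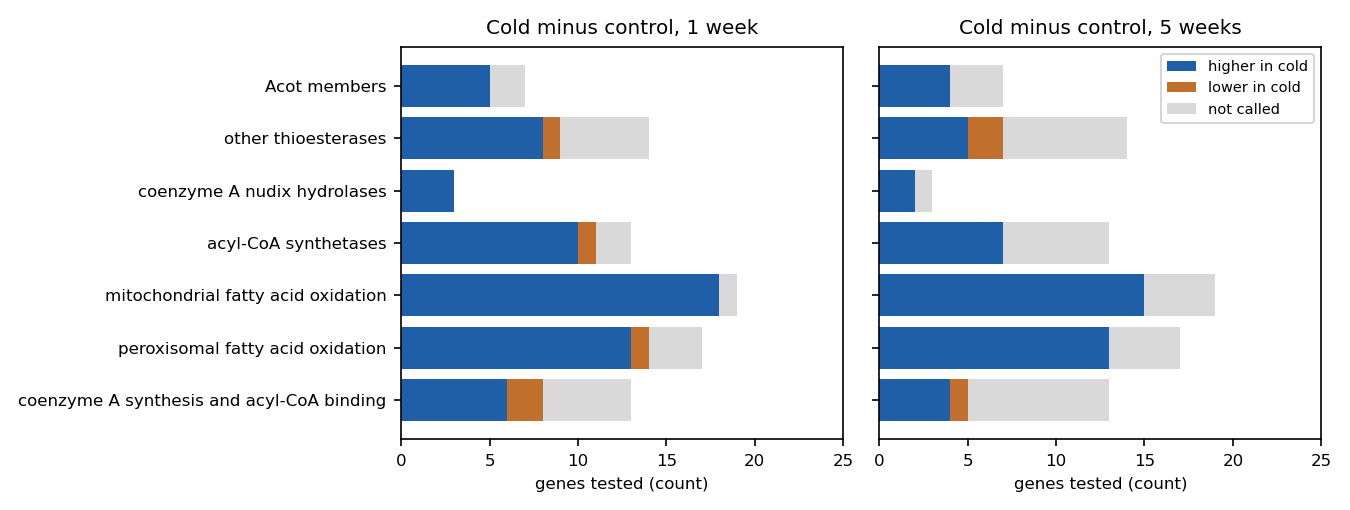
Number of tested genes (x axis) that were higher in cold, lower in cold or not called, for the Acot members and for 6 lists of acyl-CoA metabolism (y axis), at 1 week on the left and 5 weeks on the right. Mitochondrial fatty acid oxidation has 18 of 19 genes higher at 1 week, and coenzyme A synthesis and acyl-CoA binding has 6 of 13.

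Each member called at either time was compared with 12221 named genes by the Pearson correlation of signals over the 12 arrays, given as a description without a p since all genes share arrays and groups. The patterns most like Acot11 were those of Acaa2, a mitochondrial thiolase, Ndufs1, a subunit of respiratory complex I, and Pgam1, a glycolytic enzyme, each at 0.996. Acot13 was most like Mrps36 (0.994), Fam162a (0.994) and Cisd1 (0.992), a protein of the outer mitochondrial membrane. Acot2 was most like Acyp2 (0.986), Ndufa13 (0.984), another complex I subunit, and Ldhd (0.983). Acot8 was most like Pgls (0.968), an enzyme of the pentose phosphate pathway, Lpcat3 (0.957) and Tufm (0.956). Acot1 was most like Nek4 (0.976), Ghrh (0.976) and Zbtb7c (0.955), and Acot9 most like Cyp1a1 (0.917), Tmigd1 (0.912) and Mff (0.910). The Acot9 signals span a small range, 9.84 to 10.36.

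The balance of all calls depended on scaling, while the members kept their direction under centring and under quantile normalization. The share of higher calls among all called probe sets was 39.1% at 1 week and 40.5% at 5 weeks. With arrays centred on their medians it was 60.9% and 67.1%, and the median of all differences moved to 0.12 and 0.13. In the centred values 10 of the 11 member probe sets were called at 1 week and 7 at 5 weeks.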

How the data were processed

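The authors deposited log2 signals, with GCRMA as the tool per the submitters' processing notes; the GCRMA version is not given in the sources used here. This method subtracts estimated background, scales the arrays to each other and merges the probes of a probe set, so dim probe sets bunch at a low floor. Each array used 5 µg of total RNA, per the labels' protocols. The table held 45101 probe sets (64 controls) with 0 missing values. Array medians were 4.79 to 4.89, 0 pairs of columns were identical, and arrays of a group correlated at 0.9906 to 0.9978. Precision is limited by having 3 arrays per group.

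Of the probe sets, 34958 name 1 gene, 932 several and 9211 none in the array annotation, with 34754 symbols updated by gene ID. Tests used R 4.3.3 with limma 3.58.1 on the probe sets above log2 4 on at least 3 arrays: lmFit and eBayes on 4 group means over 12 arrays, 2-sided, with Benjamini-Hochberg adjustment per contrast at 0.05. The fit was tested on simulated data. Contrasts were cold minus control at each time, their difference (5 weeks minus 1 week), and 5 weeks minus 1 week within cold and within control.

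The members and gene lists were chosen with earlier results of these data known. Every member probe set is given; of each list, counts use the brightest probe set per gene, and the 3 genes with the smallest adjusted p at 1 week are named. Lypla2, Acsl3, Cpt1a, Abcd2, Pank3, Pank4, Acbd3, Acot6 and Acot12 were named besides with values in view, because they differ from most of their list or belong to the Acot family. Alternatives were other filters, quantile normalization, centring, 1 probe set per gene, another variance prior, covariates for RNA quality and muscle, a replicate block and arrays left out. The Actb covariate and the fit without 3 arrays were added after seeing the data. Signals of different probe sets were not set against each other.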

Additional observations from a re-analysis of the deposited data

Results flagged for a closer look

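For Acot8 (1417449_at) the cold effect differed between the times by a test of the difference itself: at 5 weeks minus at 1 week it was -1.66 (SE 0.280, limma adjusted p = 0.00614), from effects of -0.27 at 5 weeks and 1.39 at 1 week. The effect at 5 weeks was not called (limma adjusted p = 0.325). Every cold array lay above the controls at 1 week, as in 27.5% of all probe sets. At 5 weeks every cold array lay below them, as in 28.5% of all probe sets. The probe set shared by Acot2 and Acot1 (1422997_s_at) also differed between the times, by -1.18 (SE 0.266, adjusted p = 0.0151), from effects of 0.43 at 5 weeks and 1.60 at 1 week. Both calls were lost with the Gapdh or the Actb 3′ minus 5′ value as a covariate and with the controls of 5 weeks averaged. Among all probe sets tested 19.6% were called, 9.47% in this direction.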

How the results depend on the processing

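The member counts called were 8 at 1 week, 5 at 5 weeks, 2 for the difference of the effects and 3 for cold at 5 weeks against 1 week. At 1 week the count was 6 to 10 over the alternatives and 7 to 8 with 1 array left out. At 5 weeks it was 4 to 7, except 3 with the Actb covariate, and 4 to 5 with 1 array left out. The count for the difference was 1 with 1 probe set per gene (the shared one is not in that fit), 1 without the 2 control arrays of 1 week with the highest Gapdh 3′ minus 5′ value, 1 without the 3 such arrays of the series, and 1 with the muscle covariate. It was 0 with the Gapdh covariate, with the Actb covariate and with the controls of 5 weeks averaged, where limma at an unadjusted p under 0.05 gave 2, 1 and 2. It was 2 with any 1 array left out. For cold at 5 weeks against 1 week the count was 1 with 1 probe set per gene, 0 with the Actb covariate (2 at an unadjusted p under 0.05) and 3 to 4 with 1 array left out. Among controls it was 0 to 1 with 1 array left out, the 1 being without control replicate 1 of 1 week. The Actb 3′ minus 5′ value was 1.84 to 2.80 in cold and 1.04 to 1.16 in control mice at 5 weeks, so the groups of 5 weeks do not overlap in that covariate. The same holds for the muscle marker mean, 4.93 to 5.12 in cold and 8.01 to 8.29 in control mice at 5 weeks.

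Over all probe sets, 11847 were called at 1 week, 8254 at 5 weeks and 5203 for the difference. The counts at 1 week were 6361 with 1 probe set per gene, which tests fewer, 4893 with the Gapdh covariate, 4555 without the 2 control arrays and 5207 without the 3 arrays, and 9479 to 12157 with 1 array left out. At 5 weeks they were 4655 with 1 probe set per gene, 4126 with the muscle covariate, 2295 with averaged controls, 1056 with the Actb covariate and 5948 to 8867 with 1 array left out. For the difference they were 2551 with 1 probe set per gene, 5 with the Gapdh covariate, 331 without the 2 control arrays, 411 without the 3 arrays, 1481 with the muscle covariate, 15 with averaged controls, 0 with the Actb covariate (2151 at an unadjusted p under 0.05) and 2838 to 6034 with 1 array left out. The difference count fell by over 1.5 times without control replicate 2 of 1 week (2924), control replicate 1 (2918) or 2 (2838) of 5 weeks, or cold replicate 3 of 5 weeks (3290). The causes were not tested. Without the filter 54.5% of calls at 1 week and 57.8% at 5 weeks were higher in cold, and after quantile normalization 51.5% at 5 weeks.

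Same-numbered arrays did not deviate together (correlations from -0.0923 to 0.0847, with 4 of 12 arrays closest to their own number), so the numbers give no pairing. The replicate block gave member counts of 8, 5 and 2, and 11599, 7984 and 4881 over all probe sets.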
